A study of Mus musculus with 8 samples.

Results

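Collagen and laminin chains were followed in pharyngeal mesoderm and hearts of Isl1 knockout mouse embryos. The chains were every gene whose symbol named a collagen alpha chain or a laminin alpha, beta or gamma chain, with 1 transcript entry per symbol. This gave 55 chains, 44 of collagen and 11 of laminin, among the 20701 gene symbols of the table. For comparison they were divided into 11 fibrillar collagens, 19 basement membrane chains (type IV collagen, the multiplexins and the laminins) and 25 other collagens.

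Each library held the RNA of a single C57BL/6 embryo at E8.75, with 6 somites, and was made from 100 ng of RNA. The comparison was between 4 embryos that lacked Isl1, a LIM-homeodomain transcription factor of cardiac progenitors, and 4 wild-type embryos, in a study of the genes that this factor controls. The knockout embryos were Isl1-/-, so every tissue of the dissection carried the mutation. In the labels the molecule of 7 libraries was polyA RNA, and that of knockout embryo 2 was total RNA. In such bulk samples, fewer cells of a type and less RNA per cell cannot be told apart.

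Collagens are secreted proteins whose alpha chains wind around each other into a helix, and the fibrillar types then pack side by side into the fibres that give tissue its tensile strength. Type IV collagen and the laminins build the basement membrane, the sheet under epithelia and around endothelium and muscle. A laminin is a cross-shaped trimer of an alpha, a beta and a gamma chain, and in the early heart the myocardium and endocardium face each other across a matrix rich in these proteins.

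Total counts ranged from 18916452 to 26153039 per embryo, and the 55 chains took 0.316% to 0.414% of them. Isl1 itself was at 9.72, 9.76, 26.9 and 23.3 CPM (read counts scaled to a common library size with TMM factors) in wild-type embryos. In knockout embryos it was at 2.32, 2.16, 1.78 and 2.40 CPM, a log2 difference of -3.00 (SE 0.36, edgeR FDR = 0.00410). Without knockout embryos 3 and 4 the difference was -2.96 (FDR = 0.110), in a smaller comparison where 35 of all genes passed the FDR, against 137 with all embryos. Knockout embryos 3 and 4 stood apart in holding 10 and 65 counts of the posterior gene Hoxa9, against at most 2 in the others. Wild-type embryo 2 held 146 counts of the posterior gene Hoxb9, against 20 and 54 in knockout embryos 3 and 4 and at most 4 in the others. Y-linked transcripts were present in 1 of 4 wild-type and 3 of 4 knockout embryos. The 10 cardiomyocyte markers summed to 3022 to 4514 CPM in wild-type and 1625 to 2456 CPM in knockout embryos, and 8 of the 10 fell at an FDR under 0.05, or 3 of the 10 without knockout embryos 3 and 4.

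Col8a2 was the 1 chain that passed the test across all genes. Sequence from RefSeq (GRCm38.p6) upstream of its start is shown with that of Col16a1, the other chain whose knockout values all lay above the wild-type values, and of Col1a2 and Col3a1, a pair of fibrillar chains that varied widely between embryos of 1 genotype. Each line holds the 250 bases before the annotated start, and capitals mark matches on either strand to 4 short motifs, which were allowed to overlap. The TATA box was searched as TATAAA and the GC box as GGGCGG, at any distance from the start within the window. The CCAAT box was searched by the letters of its name. CTAATG was searched as a motif that holds the core of many homeodomain sites.
Col8a2 upstream, chr4:126286544-126286793, plus strand: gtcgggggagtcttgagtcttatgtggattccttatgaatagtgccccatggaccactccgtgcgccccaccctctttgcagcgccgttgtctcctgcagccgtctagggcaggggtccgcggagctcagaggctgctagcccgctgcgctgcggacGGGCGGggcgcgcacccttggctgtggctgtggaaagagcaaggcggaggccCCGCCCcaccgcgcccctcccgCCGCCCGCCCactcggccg
Col16a1 upstream, chr4:130047590-130047839, plus strand: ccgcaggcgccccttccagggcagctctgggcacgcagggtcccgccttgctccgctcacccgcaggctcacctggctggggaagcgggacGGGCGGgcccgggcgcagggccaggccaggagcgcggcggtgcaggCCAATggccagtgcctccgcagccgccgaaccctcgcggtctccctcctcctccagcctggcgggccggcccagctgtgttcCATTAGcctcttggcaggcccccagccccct
Col1a2 upstream, chr6:4505368-4505617, plus strand: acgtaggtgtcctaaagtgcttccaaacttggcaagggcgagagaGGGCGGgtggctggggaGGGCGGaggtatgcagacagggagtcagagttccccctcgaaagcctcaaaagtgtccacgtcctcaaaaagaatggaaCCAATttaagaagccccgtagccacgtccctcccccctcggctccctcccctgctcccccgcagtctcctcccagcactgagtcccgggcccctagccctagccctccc
Col3a1 upstream, chr1:45311288-45311537, plus strand: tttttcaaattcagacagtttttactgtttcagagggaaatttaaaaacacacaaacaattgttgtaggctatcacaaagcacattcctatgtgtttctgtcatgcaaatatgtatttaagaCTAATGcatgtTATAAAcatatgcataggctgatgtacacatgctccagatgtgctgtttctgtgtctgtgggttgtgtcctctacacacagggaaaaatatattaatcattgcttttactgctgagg
The Col8a2 window held 4 GC boxes and was 70.0% G and C. Col16a1, at 75.6%, had 1 GC box, 1 CCAAT box and 1 homeodomain motif. The Col1a2 window had 2 GC boxes and 1 CCAAT box. Col3a1 differed from these in its base composition, 35.2% G and C, and had 1 TATAAA match and 1 homeodomain motif but no GC box. Of 32851 upstream windows in the reference, 32.7% held a GC box, 33.8% a CCAAT box, 12.4% a TATAAA match and 6.36% the homeodomain motif. For the chains, 40 of 55 had a window. The median share of G and C was 59.0% in their 44 windows and 52.4% in all windows. The shares of the 44 windows with a GC box, a CCAAT box, a TATAAA match and the homeodomain motif were 54.5%, 31.8%, 11.4% and 4.55%. These matches describe the letters and do not show that a factor bound there.

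The levels per transcript length were dominated by basement membrane chains. Col18a1, a multiplexin whose end piece is released as endostatin, was the highest at 49.2 ± 4.02 RPKM (SD, n = 8), above the next chain in 8 of 8 embryos. Col4a1 followed at 39.5 ± 6.56 RPKM and Col2a1, the collagen of cartilage and notochord sheath, at 33.0 ± 3.49 RPKM. Col4a1 exceeded Col2a1 in 6 of 8 embryos, and Col2a1 exceeded the next chain, Lamb1, in 5 of 8, so these neighbours were not separated beyond their spread. Lamb1 (31.4 ± 2.85 RPKM) and Lamc1 (28.1 ± 2.10 RPKM), the beta and gamma chains of most early laminins, kept their order in 8 of 8 embryos. Among the other collagens the highest were Col26a1 (10.6 ± 3.36 RPKM) and Col9a1 (5.20 ± 1.20 RPKM). Summed over all chains, basement membrane chains made up 57.6% to 66.6% of the RPKM, fibrillar chains 23.9% to 32.0% and the other collagens 7.08% to 12.2%.

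**Figure D1:**
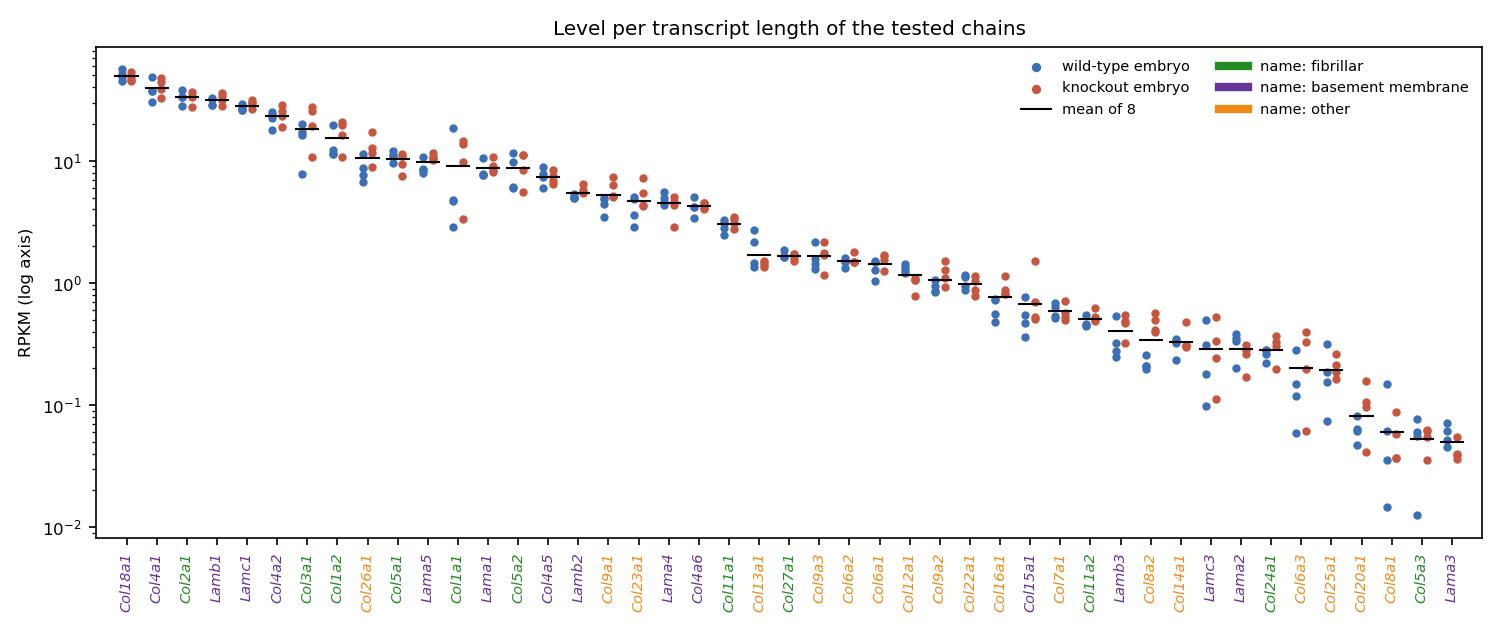
RPKM of the tested chains (log axis), with 1 point per embryo (blue, wild-type; red, knockout) and a black line at the mean of 8, ordered by that mean and with names coloured by class. Col18a1 and Col4a1 lead at 49.2 and 39.5 RPKM, and the points of Col1a1 and Col6a3 are spread widely in both genotypes.

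A filter on low counts left 46 of the 55 chains for the test, all 11 fibrillar, 17 of 19 basement membrane and 18 of 25 other chains. The 9 chains that did not pass it were Col4a3 and Col4a4 (type IV collagen of the kidney filter), Col6a4, Col6a5 and Col6a6 (beaded filaments), Col10a1 (growth plate cartilage), Col17a1 (epidermal attachment), Col19a1 and Col28a1. Their summed counts over 8 embryos were between 11 and 63. Of the 46 chains tested, 1 passed an FDR of 0.05, which is 2.17%, where 0.973% of the 14075 genes fitted passed. That chain was higher in knockout embryos, a direction in which 0.107% of all genes were called. No chain was called lower, where the share of all genes was 0.867%. At an unadjusted p under 0.05, 4 chains were higher and 2 lower, 13.0% of those tested against 17.4% of all genes, of which 7.37% were higher and 10.1% lower. With a log2 difference beyond 0.58 and an unadjusted p under 0.05, the thresholds used in the study, the count was 1 chain, or 2.17%, against 3.93% of all genes.

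The chains as a whole lay close to equality. The median log2 difference was 0.07 over the 46 chains and 0.01 over all genes, and 44 of 46 chains (95.7%) were within 1.5-fold, against 94.4% of all genes. Of the 46 chains 31 were higher and 15 lower, and of the 14075 genes fitted 7207 were higher and 6868 lower. Fibrillar collagens had a median of 0.07 with 7 higher and 4 lower. Basement membrane chains had a median of 0.04 with 11 higher and 6 lower. The other collagens had a median of 0.13, with 13 higher and 5 lower, and held the 2 chains outside 1.5-fold, Col8a2 and Col6a3. Without knockout embryos 3 and 4 the medians were -0.04, -0.04 and 0.04.

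**Figure D2:**
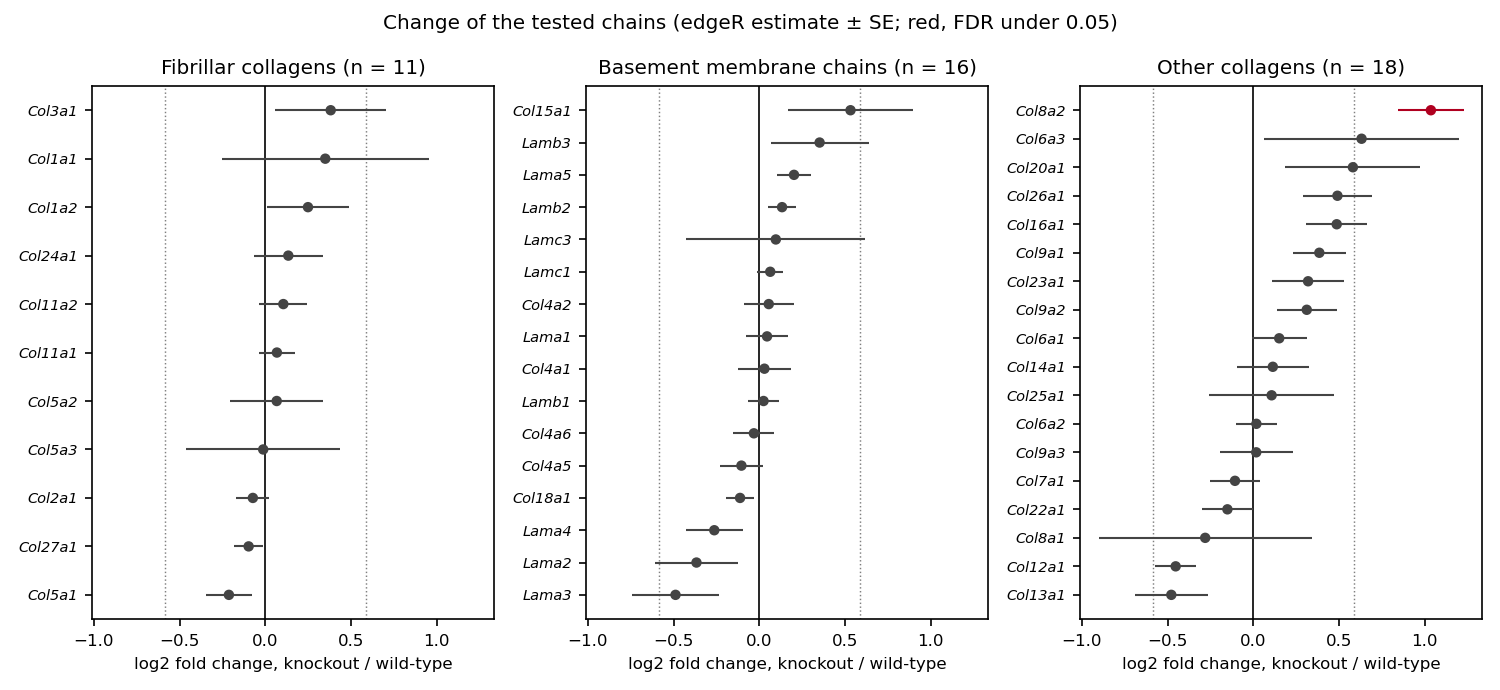
Log2 difference, knockout over wild-type, of the tested chains in 3 classes, with bars of 1 SE from edgeR (n = 4 each), a solid line at 0 and dotted lines at a 1.5-fold change. Col8a2, in red, is the single chain under an FDR of 0.05, and the fibrillar and basement membrane chains sit inside the dotted lines.

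Col8a2 (NM_199473, chromosome 4, 125964037 to 125991574, plus strand, mm9) encodes a short chain of the hexagonal networks of type VIII collagen, known from Descemet's membrane of the eye and from vessel walls. It was measured at 1.92, 1.51, 1.56 and 1.52 CPM across wild-type embryos 1 to 4 and 2.90, 3.61, 4.08 and 2.79 CPM across knockout embryos 1 to 4. Every knockout embryo lay above every wild-type embryo. The level was 2.05-fold higher in knockout embryos, a log2 difference of 1.04 (SE 0.19, FDR = 0.0397). It was a rare transcript, with 34 to 46 counts per wild-type and 57 to 87 per knockout embryo, and its call was lost without knockout embryos 3 and 4, where the log2 difference was 0.997 (FDR = 0.307). Leaving out 1 embryo at a time, the FDR was 0.0396 without wild-type embryo 3 and between 0.0700 and 0.111 without any of the other 7. With Y-linked expression as a covariate it was 0.0840, with a log2 difference of 1.11. Its network partner Col8a1 was also rare, with 96 counts over all 8 embryos and a log2 difference of -0.28 (SE 0.62, FDR = 0.847).

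The genotypes did not overlap in 3 of the 46 chains (6.52%), against 10.3% of all genes. Besides Col8a2 these were Col12a1 and Col16a1, named after their values were seen, as was Col13a1. Col12a1 (NM_001290308, chromosome 9, 79446798 to 79566638, minus strand, mm9) is a FACIT, a collagen that sits on the surface of fibrils, and was measured at 29.3, 24.7, 25.5 and 26.5 CPM across wild-type embryos 1 to 4 and 15.0, 21.6, 20.5 and 20.3 CPM across knockout embryos 1 to 4. All knockout values were below all wild-type values. The log2 difference was -0.45 (SE 0.12, FDR = 0.107), which did not pass, while DESeq2 gave an adjusted p of 0.0169. Col16a1 (NM_028266, chromosome 4, 129725084 to 129776527, plus strand, mm9), another FACIT, was at 6.55, 4.30, 6.32 and 4.83 CPM in wild-type and 7.38, 7.01, 6.90 and 9.55 CPM in knockout embryos. Its knockout values lay above its wild-type values, with the lowest knockout embryo at 6.90 and the highest wild-type embryo at 6.55 CPM. The log2 difference was 0.49 (SE 0.18, FDR = 0.206).

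The further other collagens with an unadjusted p under 0.05 were Col26a1, Col9a1 and Col13a1. Col26a1, a secreted protein with collagen repeats, averaged 41.3 ± 9.39 CPM in wild-type and 58.1 ± 15.5 CPM in knockout embryos, a log2 difference of 0.49 (SE 0.20, FDR = 0.251). Col9a1, a FACIT of cartilage, averaged 23.3 ± 3.91 CPM in wild-type and 30.4 ± 5.39 CPM in knockout embryos, a difference of 0.38 (SE 0.15, FDR = 0.240). Col13a1, a transmembrane collagen of adhesion sites, was at 11.1, 7.01, 13.7 and 7.15 CPM in wild-type and 7.15, 6.96, 6.54 and 7.24 CPM in knockout embryos. Its knockout values lay in a narrow band from 6.54 to 7.24 CPM, while wild-type embryos 1 and 3 were higher than embryos 2 and 4. The difference was -0.48 (SE 0.21, FDR = 0.285). Of the beaded-filament chains, Col6a1 and Col6a2 were nearly level with differences of 0.15 and 0.02, whereas Col6a3 was at 2.80, 5.37, 1.10 and 2.13 CPM in wild-type and 1.08, 6.01, 7.06 and 3.52 CPM in knockout embryos. Col6a3 differed 6.52-fold between its highest and lowest embryo, with low and high embryos in both genotypes, and its log2 difference was 0.63 (SE 0.57, FDR = 0.606).

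**Figure D3:**
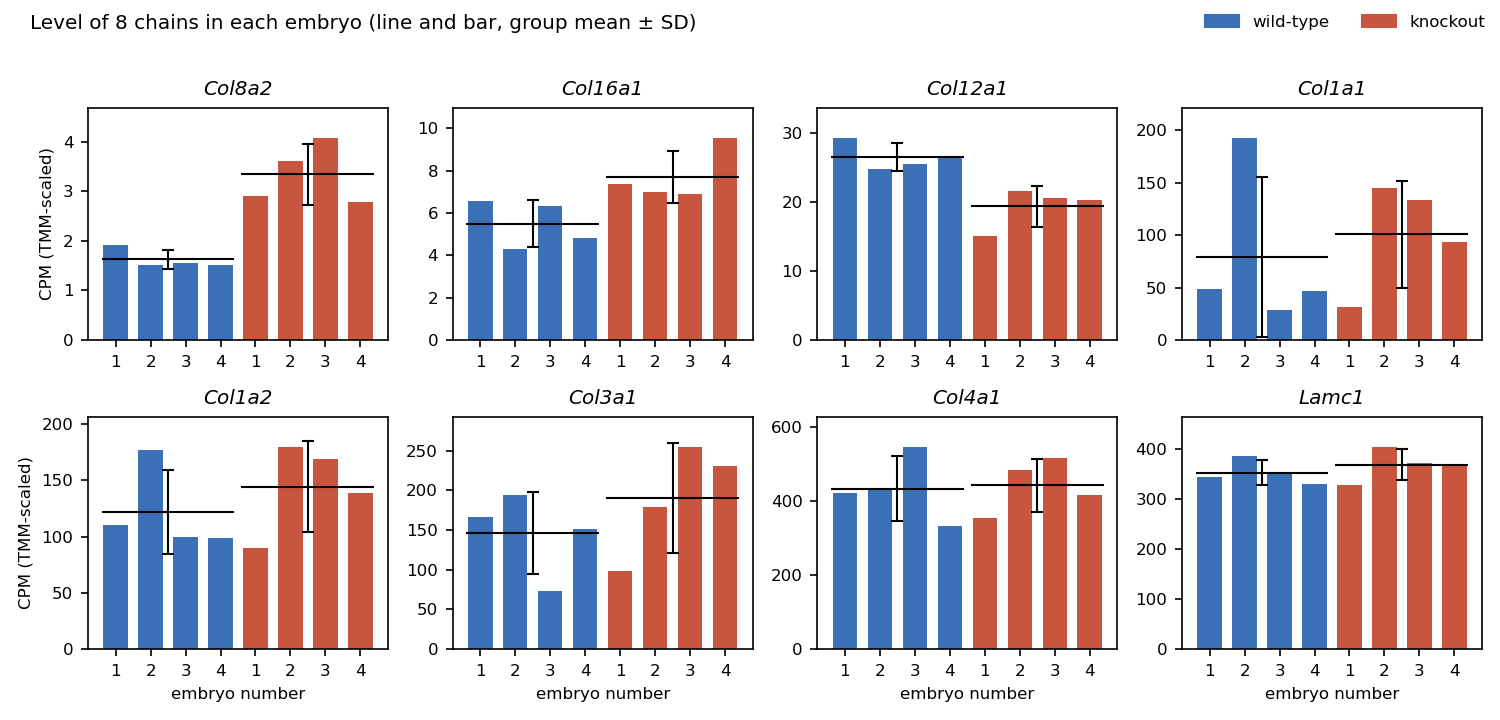
TMM-scaled CPM of 8 chains in each embryo (blue, wild-type 1 to 4; red, knockout 1 to 4), with a line at each group mean and a bar of 1 SD. Col8a2 and Col16a1 are higher and Col12a1 lower in every knockout embryo, Col1a1 runs from 28.9 to 193 CPM across both genotypes, and Lamc1 is nearly even.

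Type I, III and V collagens, the fibrils of loose connective tissue, differed more between embryos of 1 genotype than between genotypes. Col1a1 (NM_007742, chromosome 11, 94797538 to 94814356, plus strand, mm9), the major chain of type I collagen, was at 48.4, 193, 28.9 and 47.1 CPM across wild-type embryos 1 to 4 and 31.9, 145, 134 and 93.7 CPM across knockout embryos 1 to 4. Wild-type embryo 2 and knockout embryos 2, 3 and 4 were high and the remaining 4 embryos low, so the genotypes overlapped. The log2 difference was 0.35 (SE 0.60, FDR = 0.805), and it became 1.28 (FDR = 0.270) without wild-type embryo 2. The SD within a genotype was 1.09 on the log2 scale, larger than that of 99.1% of all genes.

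Col1a2, the partner of Col1a1 in type I collagen, was at 110.4, 177, 100.0 and 98.9 CPM in wild-type and 90.1, 179.7, 169 and 139 CPM in knockout embryos. Col3a1, the collagen of distensible tissues such as vessel walls, was at 166, 194, 73.4 and 151 CPM in wild-type and 97.8, 179, 254 and 230.0 CPM in knockout embryos. In Col1a2 wild-type embryo 2 and knockout embryos 2 and 3 were highest, and in Col3a1 wild-type embryo 3 and knockout embryo 1 were lowest. Their log2 differences were 0.25 (SE 0.24, FDR = 0.629) and 0.38 (SE 0.32, FDR = 0.582), and that of Col3a1 was -0.08 without knockout embryos 3 and 4. Of the type V chains, which start the assembly of type I fibrils, Col5a2 was at 111, 133, 68.7 and 65.5 CPM in wild-type and 60.0, 124, 121 and 90.8 CPM in knockout embryos, with a difference of 0.07 (SE 0.27, FDR = 0.920). Col5a1 varied less, at 157 ± 17.8 CPM in wild-type and 135 ± 25.3 CPM in knockout embryos, with a difference of -0.21 (SE 0.13, FDR = 0.446). Wild-type embryo 2 was the highest wild-type embryo in Col1a1, Col1a2, Col3a1, Col5a1 and Col5a2, and knockout embryo 1 was the lowest knockout embryo in all 5. Neither was limited to these chains. Wild-type embryo 2 was also the highest wild-type embryo in 7 of the 17 basement membrane chains tested. Knockout embryo 1 was also the lowest knockout embryo in Col4a1, Col4a2, Lamb1 and Lamc1, among others.

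The other fibrillar chains had small differences between genotypes. Col2a1 averaged 290.1 ± 31.9 CPM in wild-type and 276 ± 27.3 CPM in knockout embryos, a log2 difference of -0.07 (SE 0.10, FDR = 0.734). Col11a1 and Col11a2, its partners in cartilage fibrils, differed by 0.07 and 0.10, and Col27a1, a short fibrillar chain, by -0.10 (SE 0.08). Col24a1 differed by 0.13 (SE 0.20). Col5a3 was scarce and uneven between embryos, with 3 to 19 counts in each and a difference of -0.01 (SE 0.45). The median SD within a genotype was 0.52 on the log2 scale over the 4 major fibrillar chains, 0.25 over all 46 chains and 0.16 over all genes. Markers of surface and foregut epithelium, none of 10 with an unadjusted p under 0.05, summed to 681, 976, 844 and 674 CPM across wild-type embryos 1 to 4 and 653, 994, 996 and 703 CPM across knockout embryos 1 to 4. Wild-type embryo 2 and knockout embryos 2 and 3 were high both in these markers and in Col1a1. Wild-type embryo 3 was high in the markers but low in Col1a1, and knockout embryo 4 was the reverse. The part of these markers in the fibrillar values was not tested.

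**Figure D4:**
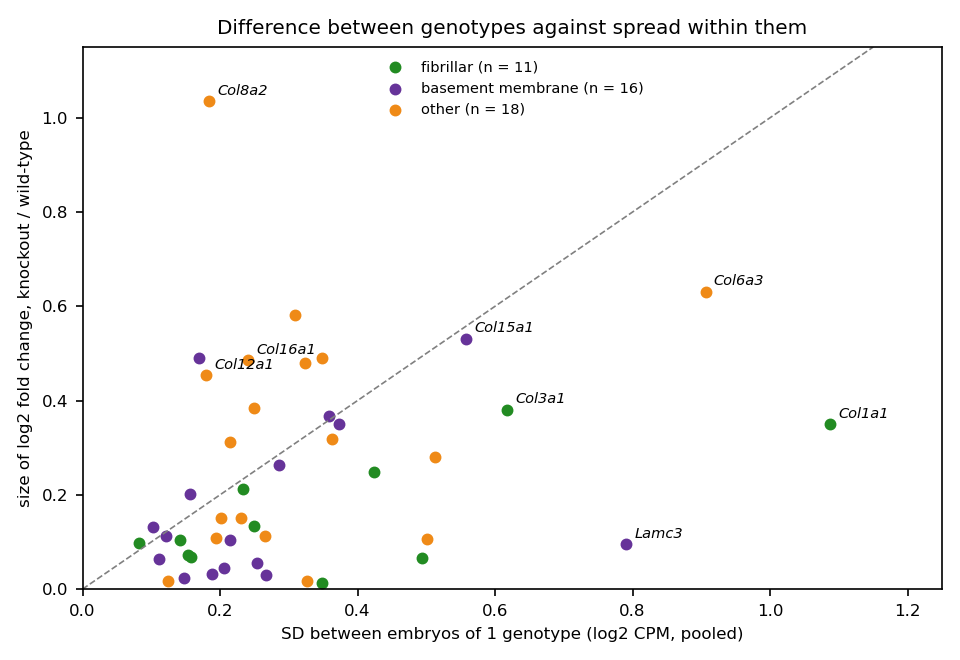
Size of the log2 difference between genotypes against the pooled SD of log2 CPM between embryos of 1 genotype (0.5 CPM added), 1 point per chain, coloured by class, with a dashed line where both are equal. Col8a2 lies far above the line, and Col1a1, Col6a3, Lamc3 and Col3a1 lie below it at the right.

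The type IV chains Col4a1 and Col4a2, which assemble together and are transcribed head to head from starts 21 bases apart on chromosome 8, had their highest and lowest embryos in common. Col4a1 was at 423, 434, 546 and 333 CPM in wild-type and 354, 484, 515 and 418 CPM in knockout embryos. Col4a2 was at 249.5, 272, 275 and 192 CPM in wild-type and 199, 278, 304 and 247 CPM in knockout embryos. In both, wild-type embryo 3 and knockout embryo 3 were the highest of their genotype, and wild-type embryo 4 and knockout embryo 1 the lowest. This order was not limited to the pair, since Lamb1, on chromosome 12, had the same highest and lowest embryos. Knockout embryo 3 was the highest knockout embryo in 10 of the 17 basement membrane chains tested. The log2 differences of Col4a1 and Col4a2 were 0.03 (SE 0.15, FDR = 0.939) and 0.05 (SE 0.14, FDR = 0.872). The ratio of Col4a1 to Col4a2, per transcript length, was 1.71 ± 0.162 in wild-type and 1.69 ± 0.0415 in knockout embryos (exact two-sided permutation test, p = 0.8857). Visceral endoderm markers summed to 1490, 2726, 4713 and 534 CPM across wild-type embryos 1 to 4 and 423, 6827, 4775 and 714 CPM across knockout embryos 1 to 4, with wild-type embryo 4 and knockout embryo 1 lowest here too. None of these 10 markers had an unadjusted p under 0.05, and with their score as a covariate the difference of Col4a1 was 0.03.

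Col4a5 and Col4a6, the X-linked pair whose starts lie 1343 bases apart, differed by -0.10 (SE 0.13, FDR = 0.712) and -0.03 (SE 0.12, FDR = 0.911). In both, wild-type embryo 2 was the highest and wild-type embryo 3 the lowest of the wild-type embryos, the reverse of Col4a1 for embryo 3. Among the knockout embryos, embryo 3 was the highest and embryo 1 the lowest in both, the same as in Col4a1. The pair Col4a3 and Col4a4 had 60 and 36 counts over all 8 embryos and was not tested. Col18a1 averaged 482 ± 45.7 CPM in wild-type and 446 ± 33.6 CPM in knockout embryos, a log2 difference of -0.11 (SE 0.08, FDR = 0.513). Col15a1, the other multiplexin, was at 7.05, 3.33, 4.21 and 4.83 CPM in wild-type and 6.03, 4.64, 4.44 and 13.0 CPM in knockout embryos. Knockout embryo 4 was the highest of all 8 and the other 3 knockout embryos lay within the wild-type range. The difference was 0.53 (SE 0.36, FDR = 0.479).

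In the edgeR fit of all 8 embryos no laminin chain passed the FDR or had an unadjusted p under 0.05. Of the laminins 8 were higher and 3 lower, with a median log2 difference of 0.06, where 7207 of all genes were higher and 6868 lower. Lamc1, shared by most laminin trimers, was among the steadiest chains at 353 ± 24.5 CPM in wild-type and 369 ± 30.9 CPM in knockout embryos, a difference of 0.06 (SE 0.08, FDR = 0.711). Lamb1 averaged 302 ± 24.8 CPM in wild-type and 307 ± 35.6 CPM in knockout embryos, a difference of 0.02 (SE 0.09, FDR = 0.914), and Lamb2, the beta chain of muscle and vessels, 48.9 ± 2.62 CPM in wild-type and 53.6 ± 4.77 CPM in knockout embryos, a difference of 0.13 (SE 0.08, FDR = 0.431). Lamb1 made up 82.6% to 86.3% of the beta chain RPKM and Lamc1 94.2% to 96.1% of the gamma chain RPKM. Lamb3, a beta chain of epidermal attachment, differed by 0.35 (SE 0.29, FDR = 0.562). Lamc3 was at 5.13, 1.02, 3.16 and 1.79 CPM in wild-type and 3.21, 2.40, 1.10 and 5.14 CPM in knockout embryos, with high and low embryos in both genotypes and a difference of 0.10 (SE 0.52, FDR = 0.941).

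The alpha chains, which carry the main receptor-binding domains, were led by Lama5, Lama1 and Lama4 in order of mean RPKM. Lama1, the alpha chain of the earliest basement membranes, was at 127, 130.2, 171 and 122 CPM in wild-type and 129.9, 145, 167 and 125 CPM in knockout embryos, a log2 difference of 0.04 (SE 0.12, FDR = 0.880). Lama5, a widespread epithelial alpha chain, was at 157, 214, 166 and 160.4 CPM in wild-type and 188, 199, 216 and 199 CPM in knockout embryos. Wild-type embryo 2 reached the knockout range, and the other 3 wild-type embryos lay below it. The difference was 0.20 (SE 0.10, FDR = 0.328), while DESeq2 gave an unadjusted p of 0.0407 (adjusted p = 0.254). With 1 embryo left out the edgeR difference ran from 0.16 to 0.31 (FDR from 0.0944 to 0.585), and it was 0.31 (FDR = 0.0944) without wild-type embryo 2. Lama4, the alpha chain of endothelium and heart muscle, was at 57.7, 52.1, 47.0 and 43.7 CPM in wild-type and 28.1, 46.1, 50.0 and 42.9 CPM in knockout embryos. Knockout embryo 1 was the lowest of all 8, and the difference was -0.26 (SE 0.17, FDR = 0.444). Lama2 and Lama3, the alpha chains of skeletal muscle and of epidermis, were scarce, with differences of -0.37 (SE 0.24, FDR = 0.463) and -0.49 (SE 0.25, FDR = 0.350).

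As a share of alpha chain RPKM, Lama4 averaged 21.5% ± 2.80 in wild-type and 17.2% ± 2.68 in knockout embryos. Lama5 averaged 39.5% ± 4.09 and 44.3% ± 2.29, and Lama1 37.3% in both. Relative to Lamc1 and per transcript length, Lama4 stood at 0.180 ± 0.0214 in wild-type and 0.142 ± 0.0255 in knockout embryos (exact two-sided permutation test, p = 0.0857, adjusted p = 0.5144). The smallest p that 4 against 4 embryos can give is 0.0286. Knockout embryo 3, at 0.170, was the single knockout embryo within the wild-type range of 0.168 to 0.212, so leaving it out fixes the exact permutation p at 0.0286, which adds no evidence. The ratio of Lama5 to Lamc1 was 0.331 ± 0.0281 in wild-type and 0.367 ± 0.0269 in knockout embryos (exact p = 0.1143, adjusted p = 0.5144), and that of Lama1 to Lamc1 was 0.314 ± 0.0532 in wild-type and 0.310 ± 0.0395 in knockout embryos (exact p = 0.8571). Endothelial markers summed to 399.7 to 516 CPM in wild-type and 331 to 467 CPM in knockout embryos, with none past the FDR and 1 of 10 at an unadjusted p under 0.05. The part of these markers, and of the lower cardiomyocyte markers, in the Lama4 values was not tested.

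**Figure D5:**
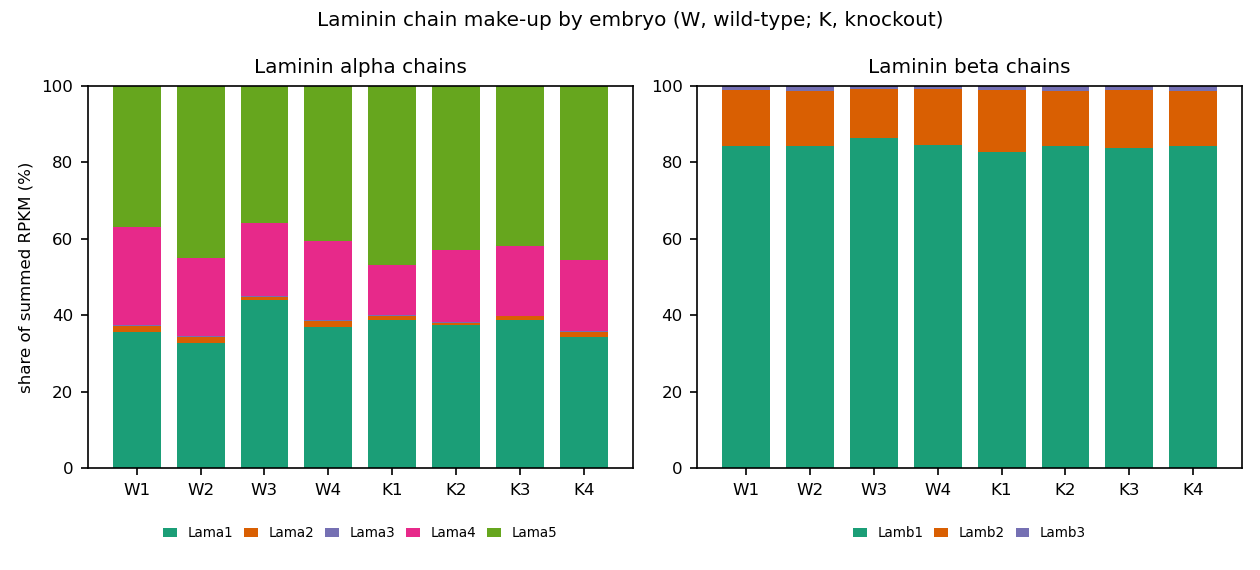
Share of each chain in the summed RPKM of the laminin alpha and beta chains, by embryo (W, wild-type; K, knockout), as stacked bars to 100%. Lamb1 fills most of the beta chain bar in every embryo, and Lama4 takes 25.5% in wild-type embryo 1 and 13.2% in knockout embryo 1.

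In all, 9 ratios of partner chains were tested, and none reached p < 0.05 in an exact test with all 8 embryos. Col1a1 over Col1a2 was the most variable, from 0.254 in wild-type embryo 3 to 0.955 in wild-type embryo 2, with means of 0.504 ± 0.310 in wild-type and 0.576 ± 0.184 in knockout embryos (exact permutation p = 0.5429). Col3a1 over Col1a1 was 2.71 ± 1.17 in wild-type and 2.31 ± 0.833 in knockout embryos (exact p = 0.6857). Col5a1 over Col5a2 was 1.40 ± 0.378 in wild-type and 1.11 ± 0.162 in knockout embryos (exact p = 0.2000). Lamb1 over Lamc1 was 1.13 ± 0.0604 in wild-type and 1.10 ± 0.0772 in knockout embryos (exact p = 0.4571), and Lamb2 over Lamb1 was 0.167 ± 0.0119 in wild-type and 0.180 ± 0.0131 in knockout embryos (exact p = 0.2571).

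Genes that process, partner, bind or cleave these chains were read from 4 lists, and in edgeR none of their genes passed the FDR, while DESeq2 called 2 in collagen processing and 1 basement membrane partner. DESeq2 called 712 of all genes (5.03% of the 14149 it adjusted), where edgeR called 137. Of 28 enzymes and chaperones of collagen processing, 19 were higher and 9 lower, where 7207 of all genes were higher and 6868 lower. Their median log2 difference was 0.06. An unadjusted p under 0.05 was reached by 5 of the 28, all higher. Of all genes, 17.4% had such a p, with 7.37% higher and 10.1% lower. The smallest p was that of P4ha2, a collagen prolyl hydroxylase, which went from 34.8 ± 4.98 to 46.9 ± 3.46 CPM, a difference of 0.43 (SE 0.11, FDR = 0.0928). Of 18 further basement membrane proteins, 12 were higher, 2 of them with an unadjusted p under 0.05, with a median of 0.09. The smallest p was that of Frem2, a protein of the epithelial basement membrane, with a difference of 0.24 (SE 0.06, FDR = 0.0858). The 14 collagen and laminin receptors had a median of 0.03, and 2 had an unadjusted p under 0.05, both lower, where 10.1% of all genes had such a p. The muscle laminin receptor subunit Itga7, with the smallest p among them, went from 1.39 to 0.764 CPM, a difference of -0.87 (SE 0.27, FDR = 0.150). The 13 matrix metalloproteinases and inhibitors had a median of 0.18, with 2 higher and 1 lower at an unadjusted p under 0.05, and the smallest p was that of Mmp15, a membrane-bound protease, with a difference of -0.25 (SE 0.07, FDR = 0.142).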

How the data were processed

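The deposited table was made by the authors from reads mapped to mm9 with STAR and counted over exons of RefSeq transcripts with HOMER, so its count columns were raw read counts per transcript. Reads of both strands were counted, so a gene and an overlapping antisense gene share their reads. RPKM values were deposited as well, computed by the authors with edgeR, and the deposited length column gave transcript length in bases. The authors' comparison columns, which hold a mean signal, log2 fold changes with standard errors, a test score and p-values from DESeq2, were not used. Versions of these upstream tools were not given in the sources used here.

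For each symbol the entry with the highest summed counts was kept, giving 20701 symbols of 31507 entries. The counts were fitted in R 4.3.3 with edgeR 4.0.16 (TMM, filterByExpr, quasi-likelihood test, genotype as the only term) over 14075 genes, with Benjamini-Hochberg adjustment over all of them (FDR). The study used DESeq2, whereas the main test here was that of edgeR, with DESeq2 on the same counts as an alternative. All tests were two-sided, and p-values measure the spread between single-embryo libraries. Levels per transcript length are the RPKM values as deposited, without TMM scaling. Ratios of chains were compared by exact permutation over embryos and adjusted over the 9 ratios. The fit was tested on simulated data.

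Alternatives were RLE scaling, no filter, DESeq2 1.42.0, limma 3.58.1 on log2(RPKM + 1), the longest entry per symbol, a replicate block, a Y-linked covariate, a test against a 1.5-fold change and leaving out each embryo. Leaving out knockout embryos 3 and 4, a visceral endoderm covariate, and the alternatives for Isl1 and the cardiomyocyte markers were added after seeing the data. Chains were named when past the FDR or the study's thresholds, when among the 2 highest by mean RPKM in the fibrillar, type IV and multiplexin, laminin or other group, or when in a tested ratio or in a divergent type IV pair. List genes were named when past the FDR or, where none was, for the smallest p. Further chains are described to account for each group, and 1 chain, counted in the totals, is not reported here or plotted. The chains, lists and rules were chosen with earlier results of these data known. Gene positions came from GENCODE vM1 on NCBIM37 (mm9), and upstream sequences and distances between starts from RefSeq on GRCm38.p6. Tables and plots were made with Python 3.11.15, pandas 2.3.3, numpy 2.4.6, scipy 1.17.1 and matplotlib 3.10.9.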

Additional observations from a re-analysis of the deposited data

Results flagged for a closer look

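In 10 of the 110 groups of 4 embryos examined, 1 embryo stood apart from the other 3 by Dixon's 95% criterion, where chance gives about 1 in 20, or 5.5 groups. In wild-type embryo 2 the fibrillar chains Col1a1 and Col1a2 were at 193 and 177 CPM, against 28.9 to 48.4 and 98.9 to 110.4 CPM in the other wild-type embryos. The same embryo had 214 CPM of Lama5, against 157 to 166 CPM. Wild-type embryo 3 had 171 CPM of Lama1, against 122 to 130.2 CPM. The ratio of Lamb1 to Lamc1 was high in embryo 3 of both genotypes, 1.22 among wild-type embryos whose others were between 1.10 and 1.10, and 1.21 among knockout embryos whose others were between 1.05 and 1.07. In wild-type embryo 1 the ratio of Lama4 to Lamc1 was 0.212, against 0.168 to 0.170, and Col8a2 was 1.92 CPM, against 1.51 to 1.56 CPM. Among knockout embryos, embryo 3 had 5.12 CPM of the FACIT Col14a1, against 3.13 to 3.32 CPM, and embryo 4 had 10.9 CPM of Col6a2, against 8.93 to 9.20 CPM.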

How the results depend on the processing

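The number of chains past the FDR was 1 under RLE scaling, no filter, limma, the longest entry and the visceral endoderm covariate. It was 2 with DESeq2 and 0 with the replicate block, the Y-linked covariate, the test against a 1.5-fold change, or without knockout embryos 3 and 4. Leaving out 1 embryo gave 0 to 1. Of all genes, 137 passed in edgeR and 712 with DESeq2, 317 with the visceral endoderm covariate, 106 with the Y-linked covariate, 11 with the test against a 1.5-fold change, 35 without knockout embryos 3 and 4, and 70 to 490 with 1 embryo left out, the highest without wild-type embryo 3. Past the study's thresholds there were 0 chains with limma and 2 each with the Y-linked covariate and without knockout embryos 3 and 4. With 1 embryo left out there were 1 to 4, the highest without wild-type embryo 2. The limma count is not on the scale of the others, since 1 was added to the RPKM before the log. Col8a2, at 0.198 to 0.567 RPKM, differed there by 0.27. In the collagen processing list DESeq2 called 2 genes and the visceral endoderm covariate 1, and DESeq2 called 1 basement membrane partner; leaving out 1 embryo gave 0 to 1 in both lists. Of the 10 cardiomyocyte markers, 5 passed with limma, 3 with the replicate block and 3 without knockout embryos 3 and 4, and 3 to 10 with 1 embryo left out. The log2 difference of Isl1 without knockout embryos 3 and 4 was -2.96 (FDR = 0.110). The causes were not tested.

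The sign turned for Col4a6 with limma (0.0302) and, without knockout embryos 3 and 4, for Col3a1 (-0.0790), Col4a1 (-0.0502), Lamb1 (-0.0333), Col5a2 (-0.0378), Col4a2 (-0.0532) and Lama1 (-0.000566). With 1 embryo left out the log2 differences ran from -0.0788 to 0.16 in Col4a1, -0.0494 to 0.16 in Col4a2, -0.13 to 0.0834 in Col4a6, -0.0752 to 0.27 in Col5a2, -0.0447 to 0.17 in Lama1 and -0.0318 to 0.0924 in Lamb1. The log2 ratios ran from -0.56 to 0.0783 for Col3a1 over Col1a1, -0.0590 to 0.0466 for Col4a1 over Col4a2, -0.0906 to 0.0978 for Lama1 over Lamc1 and -0.44 to -0.22 for Lama4 over Lamc1.

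With the replicate number as a block, Col8a2 had a log2 difference of 1.02 (FDR = 0.126), and 76 of all genes passed the FDR against 137 without it. The numbers come from the sample titles, which name no shared litter. Deviations of same-numbered embryos correlated at 0.122, 0.199, 0.0577 and 0.543 across genes, a mean of 0.231. Between differently numbered embryos the correlations ran from -0.693 to 0.567, and wild-type embryo 3 correlated best with knockout embryo 2 (0.485). These values do not settle whether same-numbered embryos shared a litter or a batch, so the fits with and without the block are both given.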

Other observations

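The remaining tissue marker lists held 1 gene past the FDR. Gata6, a transcription factor of parietal endoderm that is also used in heart precursors, fell by 0.69 on the log2 scale (FDR = 0.0278). Markers of parietal endoderm, a tissue that makes large amounts of type IV collagen and laminin, summed to 381 to 845 CPM in wild-type and 411 to 929.5 CPM in knockout embryos. All 8 neural crest markers were higher, as were 7207 of the 14075 genes fitted. The markers had a median log2 difference of 0.26 and the smallest p in Snai2, which differed by 0.48 (SE 0.13, FDR = 0.103). Their sums were 227 to 251 CPM in wild-type and 253, 306, 211 and 356 CPM across knockout embryos 1 to 4. Knockout embryo 3 was thus the lowest of all 8 embryos. All 8 primitive erythroid markers were higher too, with a median of 0.49 and sums of 373 to 2408 CPM in wild-type and 1274 to 3173 CPM in knockout embryos, and none passed. The notochord and floor plate list (median 0.08), the somite and sclerotome list (median 0.11) and the epicardial and proepicardial list (median 0.29) held no gene past the FDR.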
